A study of Mus musculus with 6 samples.

Results

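The pyruvate dehydrogenase complex and its kinases were examined in brown adipose tissue (BAT) of mice that lack KRAP, a protein associated with the actin cytoskeleton. Members were chosen by gene symbol: the 5 subunit genes of the complex (Pdha1, Pdhb, Dlat, Dld and Pdhx), the 4 kinase genes (Pdk1, Pdk2, Pdk3 and Pdk4) and pyruvate carboxylase (Pcx). On the Affymetrix mouse genome array, 22 of 45101 probe sets were annotated to 1 of these 10 genes alone, and 0 were shared between a member and another gene. Of the 22, 4 were array control probe sets for Pcx and 18 were ordinary ones. Of the 18, 15 averaged more than the array median over the 6 arrays and were tested, and 3 did not. The tested probe sets covered 9 of the 10 genes, all but Pdk3.

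The KO group held 3 KRAP-deficient mice and the WT group their 3 wild-type littermates, so that KO and WT animals with the same number formed a pair. In the KO mice part of the KRAP coding exons had been exchanged for a neomycin resistance cassette in every tissue, on a C57BL6/J background reached by backcrossing. All animals were 32 weeks old and on normal chow, with no drug or cold exposure named, and each gave 1 array. The comparison asked which transcripts of BAT differ when KRAP is absent.

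Pyruvate, the end product of glycolysis, enters the mitochondrial matrix and is oxidised to acetyl-CoA by the pyruvate dehydrogenase complex. The kinases phosphorylate the complex and switch it off, and phosphatases switch it on again. Brown fat uses the complex to burn glucose and to make fatty acids from it, while pyruvate carboxylase turns pyruvate into oxaloacetate instead.

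A signal of 1 stands for the median of the array it was read on, and differences are log2 values of KO minus WT with 95% confidence intervals. Medians of the 6 arrays ranged over 16.5 to 20.4 in units of intensity. Ucp1, the uncoupling protein that defines brown fat, read 343 to 624 in KO and 345 to 655 in WT, which fits the labelled tissue. The 1 probe set of KRAP (symbol Itprid2) read 35.1 to 47.0 in KO and 42.2 to 56.6 in WT, and since no source used here places it relative to the deleted exons, it does not check the genotype. Summed skeletal muscle markers (10 of 10 genes present, none at 0) ranged over 28.2 to 838 in KO and 71.7 to 351 in WT, highest in KO 2 and WT 3. Summed liver markers (6 of 7 genes, none at 0) were 55.7 in KO 3 and between 2.57 and 3.83 in the other arrays. The WT 2 array stood apart in its 18S ribosomal RNA control. In units of intensity, not divided by the array median, it read 1731 against 112 to 215 in the other arrays.

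The E1 enzyme, a tetramer of Pdha1 and Pdhb products, removes carbon dioxide from pyruvate and is the part that the kinases phosphorylate. Both genes had lower means in KO, with Pdhb furthest from WT of all members. The brighter Pdhb probe set read 390.1, 281 and 343 in KO 1 to 3, against 570.4, 515 and 356 in WT 1 to 3. The KO animal of each pair lay below its littermate, but KO 1 lay above WT 3, so the groups overlapped. The means were 338 ± 55.0 in KO and 481 ± 111 in WT (SD, n = 3 each), and the log2 difference was -0.49 (-1.04 to 0.05, limma adjusted p = 0.624). In bulk tissue such as this, fewer cells of a type and less RNA per cell cannot be told apart.

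The dimmer Pdhb probe set read 24.7, 14.6 and 14.1 in KO 1 to 3, against 31.2, 38.6 and 22.6 in WT 1 to 3. It was again lower in KO in each pair, with KO over WT ratios of 0.792, 0.378 and 0.621 and overlap between KO 1 and WT 3. Its log2 difference was -0.81 (-1.42 to -0.20, limma adjusted p = 0.486). Without pair 2, which holds the WT 2 array, the difference was -0.51 (adjusted p = 0.795). It was the only member probe set with an unadjusted limma p under 0.05 (0.0168), 1 of 15, where 8.55% of all tested probe sets had one. With the adjusted p under 0.05, 0 of 15 member probe sets passed, as did 0 of 22356 tested probe sets (0.0%).

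Pdha1, the catalytic E1 alpha subunit encoded on the X chromosome, read 418, 355 and 440.1 in KO 1 to 3, against 496, 503 and 408 in WT 1 to 3. Pairs 1 and 2 were lower in KO and pair 3 was higher. The log2 difference was -0.21 (-0.72 to 0.29, adjusted p = 0.827), and it was -0.07 without pair 2 and -0.38 without pair 3. The other Pdha1 probe set gave ratios of 0.721, 0.755 and 1.03 in pairs 1 to 3 and a log2 difference of -0.28 (adjusted p = 0.751), so both probe sets had the same signs pair by pair.

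**Figure D1:**
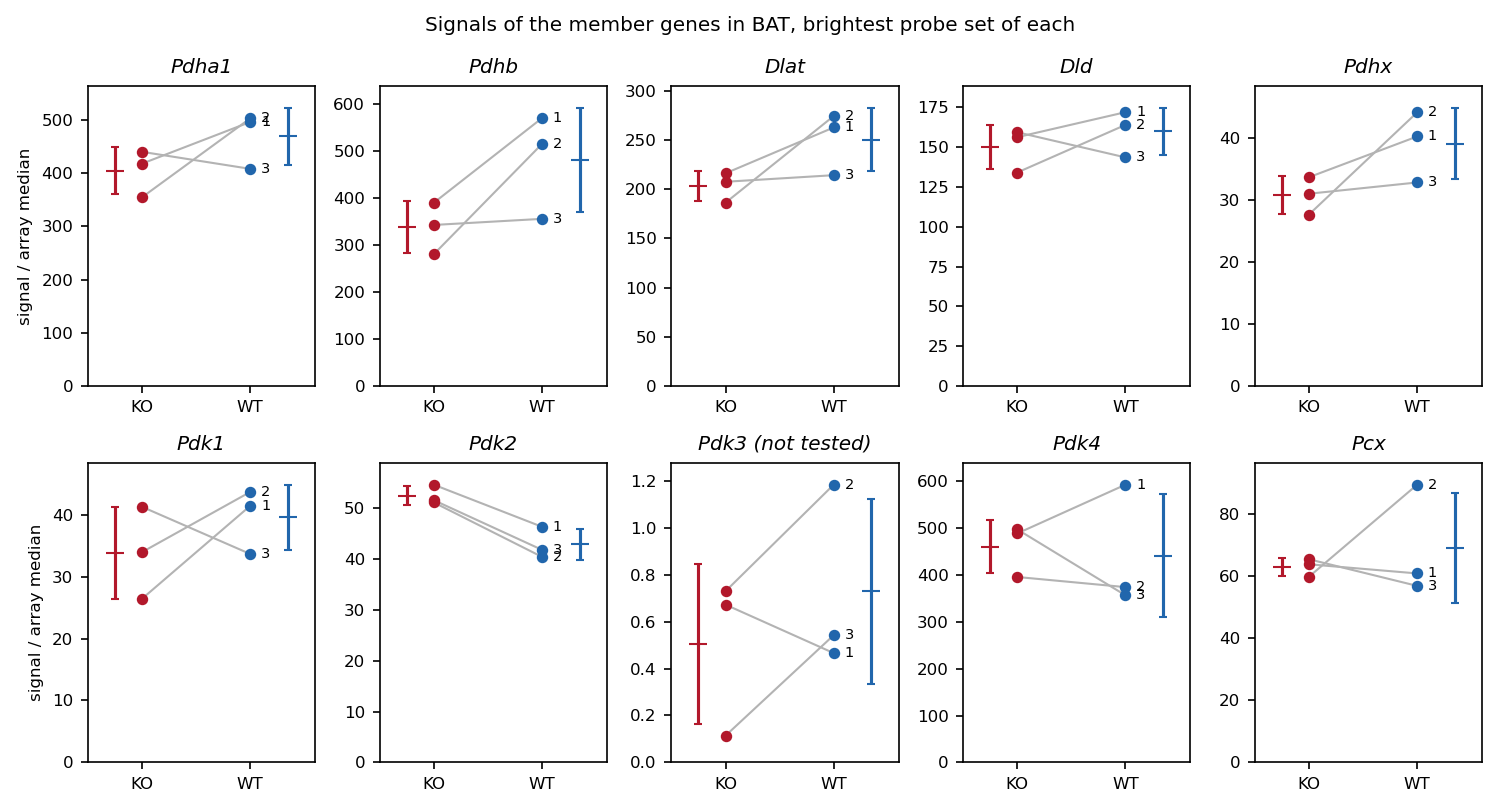
Signals of the 10 member genes in KO and WT BAT, in units of the array median, each gene on its brightest probe set and on its own linear scale from 0. Each point is 1 array, a grey line connects the 2 animals of a numbered pair, and means with SD (n = 3) stand beside the points. Pdk2 is the 1 gene with all KO points above all WT points, Pdhb, Dlat and Pdhx slope upward to WT in all 3 pairs, and Pdk3 stays near or below the array median.

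E2, encoded by Dlat, carries the lipoyl arms that take up the acetyl group and forms the core of the complex together with the E3 binding protein encoded by Pdhx. Dlat was measured by 3 tested probe sets, all lower in KO in 3 of 3 pairs. The first read 207.5, 199 and 202.5 in KO 1 to 3, against 227, 282 and 223 in WT 1 to 3, with no overlap and a narrow spread in KO. The dimmest read 32.2, 30.1 and 32.2 in KO 1 to 3, against 44.1, 52.7 and 34.7 in WT 1 to 3, also with no overlap. The log2 differences were -0.26 (-0.73 to 0.21, adjusted p = 0.761) for the first and -0.46 (-0.98 to 0.06, adjusted p = 0.636) for the dimmest.

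The brightest Dlat probe set, of a class whose probes can also pair with other transcripts, gave -0.30 (-0.78 to 0.19, adjusted p = 0.726), and KO 1 lay just above WT 3, at 216 against 214. The 3 probe sets read 1 gene in the same RNA and are not replicates of one another. They gave KO over WT ratios of 0.571 to 0.705 in pair 2, and of 0.907 to 0.969 in pair 3. Without pair 2 their log2 differences lay between -0.28 and -0.14.

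Pdhx read 33.7, 27.7 and 31.1 in KO 1 to 3, against 40.3, 44.2 and 32.9 in WT 1 to 3. Each KO animal was below its littermate, and KO 1 lay above WT 3. The log2 difference was -0.34 (-0.84 to 0.16, adjusted p = 0.701), and -0.17 without pair 2. Dld, the E3 enzyme that the complex shares with other 2-oxo acid dehydrogenases and with the glycine cleavage system, read 156, 134 and 159 in KO 1 to 3, against 172, 164 and 144 in WT 1 to 3. The Dld groups overlapped and pair 3 was higher in KO, for a log2 difference of -0.09 (-0.57 to 0.38, adjusted p = 0.934). A further Dld probe set lay below the array median in all 6 arrays and was not tested.

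The kinases did not share a direction. Pdk2, the kinase found in most tissues, read 54.6, 51.1 and 51.5 in KO 1 to 3, against 46.3, 40.4 and 41.8 in WT 1 to 3. All KO animals lay above all WT animals, with ratios of 1.18, 1.26 and 1.23 in pairs 1 to 3. The means were 52.4 ± 1.89 in KO and 42.8 ± 3.09 in WT (SD, n = 3 each), a log2 difference of 0.29 (-0.15 to 0.74, adjusted p = 0.707). The difference was 0.27 without pair 2.

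Pdk4, the kinase known to be induced by fasting and fatty acids, read 488, 395.5 and 497 in KO 1 to 3, against 592, 374 and 356.5 in WT 1 to 3. The pairs disagreed, with ratios of 0.824, 1.06 and 1.39, and the groups overlapped. The log2 difference was 0.09 (-0.44 to 0.62, adjusted p = 0.942), and -0.10 without pair 3. The interval spans changes of either sign.

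Pdk1, the kinase induced at low oxygen, was measured by 3 tested probe sets. The brightest read 26.4, 33.95 and 41.3 in KO 1 to 3, against 41.4, 43.7 and 33.6 in WT 1 to 3. All 3 were lower in KO in pairs 1 and 2 and higher in pair 3, with log2 differences of -0.24, -0.39 and -0.28 (adjusted p = 0.831, 0.719 and 0.799). Without pair 1 the brightest was at -0.03 and the dimmest at 0.005. Single pairs of the dimmest changed sign with the scaling, at 0.19 in pair 2 and -0.10 in pair 3 on the signals as deposited. After quantile normalization its pair 2 was at 0.17. Its log2 difference stayed below 0 under these scalings, at -0.22 and -0.20. A Pdk1 probe set under the filter read 0.0205 to 0.677 in KO and 0.658 to 1.28 in WT. Pdk3, in which KO 1 to 3 read 0.672, 0.729 and 0.114 and WT 1 to 3 read 0.466, 1.18 and 0.542, was near or below the array median throughout and was not tested.

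Because Dlat and Pdhx were lower and Pdk2 higher in KO in all 3 pairs, the 250 bases before the start of each of these genes are shown, as chosen after their values had been seen. The Pdhb window is left out, since it lies inside the annotated gene. The sequences are those of RefSeq on the GRCm38.p6 build, written 5′ to 3′ on the minus strand for Dlat (chr9:50659781-50660030), Pdhx (chr2:103073514-103073763) and Pdk2 (chr11:95041372-95041621). Capitals mark the motifs that were searched for on both strands, which were GGGCGG (the GC box), CCAAT (read as ATTGG on the other strand), CACGTG (the E-box) and AAGGTCA (a nuclear receptor motif).
Dlat: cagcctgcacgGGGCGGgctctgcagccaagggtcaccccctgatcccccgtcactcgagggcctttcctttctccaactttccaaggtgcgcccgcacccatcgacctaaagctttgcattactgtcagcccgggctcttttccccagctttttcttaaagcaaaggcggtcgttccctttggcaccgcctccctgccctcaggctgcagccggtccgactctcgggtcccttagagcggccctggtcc
Pdhx: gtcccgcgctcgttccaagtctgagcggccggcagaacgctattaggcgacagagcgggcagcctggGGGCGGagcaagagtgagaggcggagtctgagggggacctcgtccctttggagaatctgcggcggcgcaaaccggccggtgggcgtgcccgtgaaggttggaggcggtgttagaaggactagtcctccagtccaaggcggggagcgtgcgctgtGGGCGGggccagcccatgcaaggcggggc
Pdk2: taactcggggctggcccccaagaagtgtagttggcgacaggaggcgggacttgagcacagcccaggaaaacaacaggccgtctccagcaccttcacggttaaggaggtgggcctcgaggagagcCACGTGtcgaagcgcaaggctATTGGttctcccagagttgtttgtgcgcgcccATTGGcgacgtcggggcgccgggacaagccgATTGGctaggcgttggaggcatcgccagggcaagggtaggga

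The GC box stood once in the Dlat window and at 2 places in that of Pdhx. The Pdk2 window held CCAAT at 3 places and 1 E-box. The nuclear receptor motif was not in any of the 3 windows. Of the windows not shown, that before Pcx, whose pairs disagreed, held CCAAT at 3 places, 1 GC box and 1 E-box. The Pdhb window held CCAAT at 3 places and the GC box at 2, and that of Pdha1 held none of the motifs. Those of Dld and Pdk4 held 1 CCAAT each, that of Pdk3 1 CCAAT and 1 GC box, and that of Pdk1 1 GC box. A further window each of Pdk1, Pdk2 and Pcx, inside the annotated gene, held none. Over 32851 promoter windows of the same length, GGGCGG was in 32.7%, CCAAT in 33.8%, CACGTG in 6.02% and AAGGTCA in 4.08%. A match describes the letters of a window and was not tied to any measurement of binding.

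Pcx was read by 1 tested probe set and by 4 control probe sets placed along its transcript. The tested probe set read 63.7, 59.7 and 65.3 in KO 1 to 3, against 60.8, 89.3 and 56.8 in WT 1 to 3. WT 2 stood above the other 5 arrays, and pairs 1 and 3 were higher in KO. The log2 difference was -0.10 (-0.65 to 0.44, adjusted p = 0.936), and 0.14 without pair 2.

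The control at the 3′ end of Pcx read 67.6, 56.3 and 59.1 in KO 1 to 3, against 59.9, 76.1 and 54.1 in WT 1 to 3, with the WT arrays in the same order as on the tested probe set. The control at the 5′ end read 6.32, 2.54 and 2.33 in KO 1 to 3, against 6.67, 1.44 and 2.45 in WT 1 to 3. In pair 2 the KO over WT ratio was therefore 0.739 at the 3′ end and 1.76 at the 5′ end. The ratio of 3′ to 5′ signal, used on these arrays as a sign of RNA or labelling quality, was 10.7, 22.2 and 25.3 in KO 1 to 3, against 8.99, 52.9 and 22.1 in WT 1 to 3. WT 2 had the highest ratio and pair 1 the lowest, and actin gave 1.95 to 2.58 in KO and 1.91 to 3.80 in WT, again highest in WT 2. The part of RNA quality in the member differences of pair 2 was not tested.

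**Figure D2:**
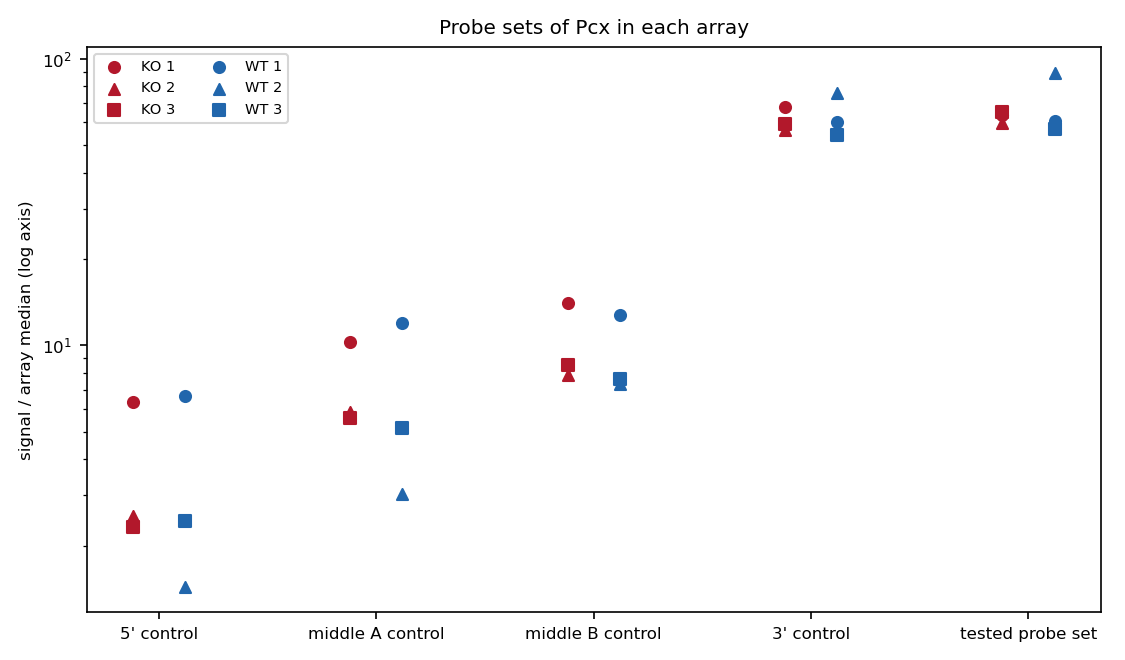
Signals of the 5 Pcx probe sets in each array, in units of the array median (log axis), with KO left of WT and the marker shape giving the pair. Levels of different probe sets are not comparable with each other. WT 2 is the highest array at the 3′ control and the tested probe set, and the lowest at the 5′ control and at both middle controls.

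Counted over probe sets, 6 of 15 members were lower in KO in all 3 pairs, where 18.4% of all tested probe sets were, and 1 of 15, that of Pdk2, was higher in all 3 pairs, where 12.4% were. All KO arrays lay below all WT arrays for 2 of 15 (7.16% of all tested) and above them for 1 of 15 (4.59%). By gene, on the brightest probe set, Pdhb, Dlat and Pdhx were lower in all 3 pairs, 3 of 9 (19.7% of all tested genes), and Pdk2 was higher, 1 of 9 (10.9%). A difference of 1.5-fold in all 3 pairs, the rule of the study's methods, was met by 0 of 15 member probe sets in either direction (0.819% of all tested were lower by it and 0.555% higher). With 3 pairs, an exact sign permutation test of a single gene cannot go below p = 0.25, so pair counts are given without a test.

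**Figure D3:**
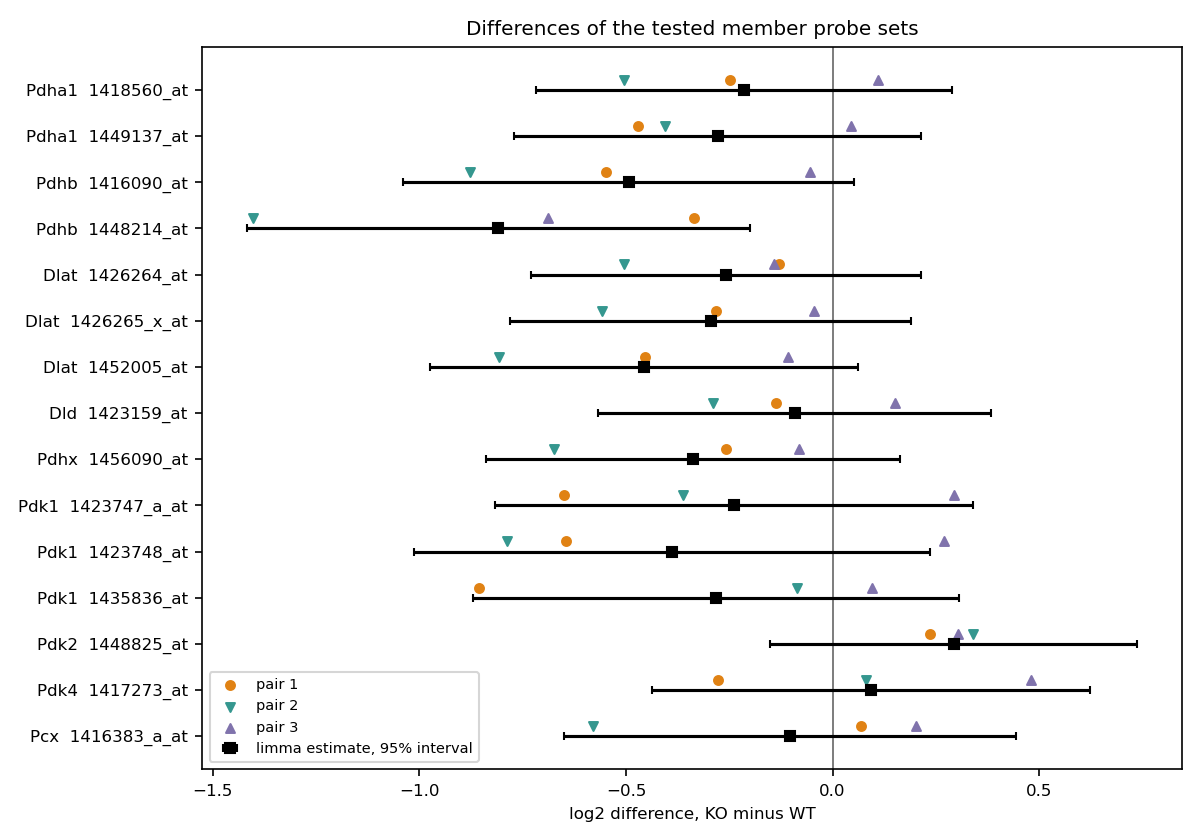
Log2 differences, KO minus WT, of the 15 tested member probe sets. Squares are limma estimates with 95% confidence intervals, and the coloured markers are the differences within pairs 1 to 3. The interval of the dimmer Pdhb probe set, -1.42 to -0.20, is the 1 that leaves out 0, and pair 3 lies to the right of pair 2 for each probe set but that of Pdk2.

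The median log2 difference was -0.21 over the 9 member genes, -0.30 over the 5 subunit genes and 0.09 over the 3 tested kinase genes, beside -0.07 over all 11140 tested genes. Within pairs 1 to 3, the subunit median was -0.26, -0.56 and -0.04, where the median of all tested genes was -0.03, -0.24 and 0.06. Both medians were lowest in pair 2. Tested genes with a mean signal above 20, a range that holds all 9 members, had medians of -0.04, -0.29 and 0.11 in pairs 1 to 3. The member median was -0.07 without pair 2.

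The pair values were also set beside the level of the whole array. KO 2 had the lowest signal of its group for 5 of 5 subunit genes, and so had WT 3. These arrays also had the highest medians of their groups, 20.1 and 20.4, the highest skeletal muscle marker sums, 838 and 351, and the lowest brown adipocyte marker sums, 1555 and 1563, where the other KO arrays summed to 1763 and 2281 and the other WT arrays to 1946 and 2276. On the signals as deposited, without division by the array median, KO 2 was lowest for 3 of 5 and WT 3 for 3 of 5. There KO 3 was lowest of its group for 2 of 5, and WT 3 was highest of its group for 2 of 5. Of 5 tested white adipocyte markers, 4 lay below WT and 1 above it in each pair, with a median of -1.65 (-0.97, -1.81 and -2.27 in pairs 1 to 3). Lep, Sncg, Npr3 and Nnat differed by -2.07, -1.87, -1.42 and -1.65, and Retn, a hormone of adipocytes, by 0.95, with 0 of the 5 past the adjusted test. Summed over all 6 genes of that list, none at 0, the white adipocyte markers read 67.0 to 104 in KO and 82.9 to 115 in WT. Endothelial markers summed to 41.6 to 44.7 in KO and 43.6 to 59.9 in WT (5 of 5 genes, none at 0), and 3 of 5 lay below WT in each pair. Macrophage markers summed to 97.9 to 109 in KO and 79.7 to 111.5 in WT (6 of 6 genes, none at 0). In each pair 2 of 6 lay above WT, Cd163 by 1.29 and Mrc1 by 0.45, and 1 below it, Cd68 by -0.39, with 0 past the adjusted test. The parts of array level and of tissue composition in the member differences were not tested.

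On the signals as deposited, and likewise after quantile normalization, all 9 tested subunit probe sets, which read 5 genes, were lower in KO in 3 of 3 pairs. After scaling to the array median 6 of 9 were, beside 18.4% of all tested probe sets. Under the other scalings the share over all features was taken by gene only. Pdha1 and Dld, which were higher in KO in pair 3 after scaling to the median, were lower there under both other scalings, Dld by no more than 0.05. By gene, 5 of 9 members were then lower in all 3 pairs, beside 17.5% of all tested genes on the signals as deposited and 18.2% after quantile normalization. Pdha1, Pdhb, Dlat and Pdhx then had all KO arrays below all WT arrays, 4 of 9 (6.62% and 6.83% of all tested genes). After scaling to the array median, 0 of 9 genes did on the brightest probe set. The 2 of 15 probe sets that did there (7.16% of all tested probe sets) were both of Dlat. Subunit medians in pairs 1 to 3 were -0.15, -0.28 and -0.24 on the deposited signals and -0.23, -0.33 and -0.17 after quantile normalization. Pdk2 was higher in KO in 3 of 3 pairs with no overlap under all 3 scalings, with log2 differences of 0.29, 0.35 and 0.37. On the deposited signals 14.0% of all tested genes were higher in all 3 pairs and 5.51% had all KO above all WT arrays, and after quantile normalization 16.8% and 6.53%. As before, 0 member probe sets passed the adjusted test under any scaling.

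**Figure D4:**
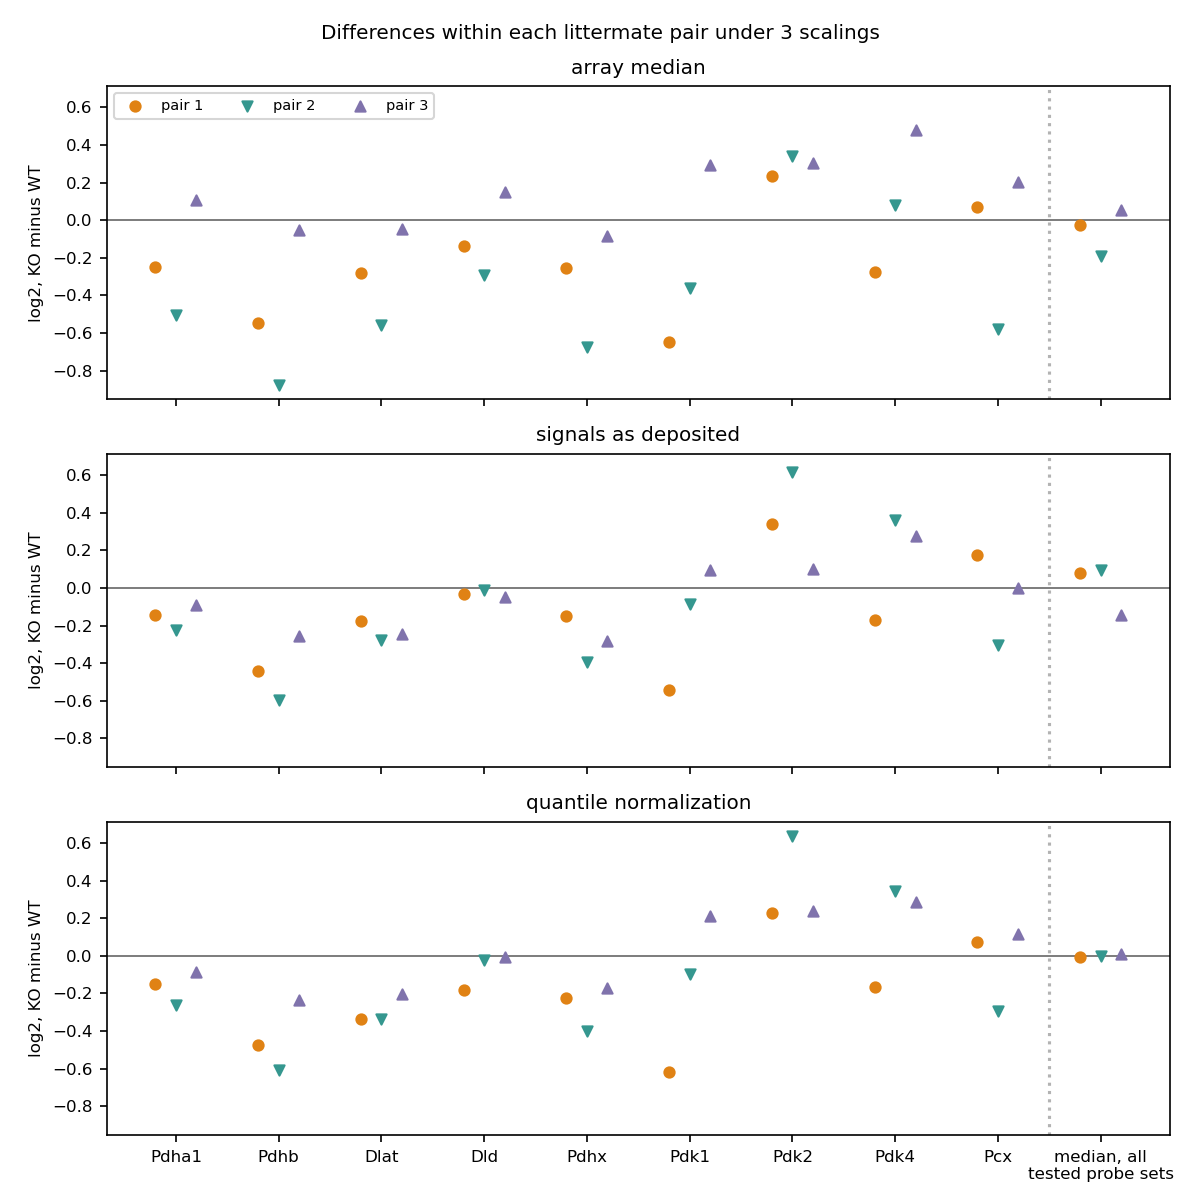
Log2 differences within each littermate pair, KO minus WT, for the brightest tested probe set of 9 member genes and for the median of all tested probe sets, under division by the array median, on the signals as deposited and after quantile normalization. Pdha1 and Dld in pair 3 lie above 0 only under the array median, and Pdk2 lies above 0 in all pairs under each scaling.

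The genes around the complex were described by the same counts. Of 12 tested genes that bring pyruvate in or exchange it with lactate and malate, 4 were lower and 0 higher in KO in all 3 pairs, with a median of -0.17. Me1, the cytosolic malic enzyme that makes pyruvate and NADPH, read 150.1, 142 and 131 in KO 1 to 3, against 259, 291 and 143 in WT 1 to 3. It was lower in 3 of 3 pairs, with a log2 difference of -0.65 (adjusted p = 0.538). Pkm, the pyruvate kinase that makes pyruvate from glycolysis, and Slc16a1, a lactate and pyruvate transporter, differed by -0.38 and -0.34, also lower in all 3 pairs.

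The phosphatases that reactivate the complex, 3 of 3 tested, had differences of -0.14 for Pdp1 (lower in all 3 pairs), 0.02 for Pdp2 and 0.05 for the regulatory subunit Pdpr. Other tested probe sets had the opposite sign. The dimmer one of Pdp1 differed by 0.18, with only pair 2 higher in KO, and those of Pdpr by -0.12 and -0.36. Of 9 tested genes of the sister 2-oxo acid dehydrogenase complexes, 1 lay below WT and 2 above it in each pair (median -0.06). Ppm1k, the phosphatase that activates the branched-chain complex, read 15.1, 21.7 and 24.6 in KO 1 to 3, against 9.11, 12.5 and 10.1 in WT 1 to 3. These groups did not overlap, and the log2 difference was 0.93 (0.43 to 1.44, adjusted p = 0.403). Dbt, the E2 of the branched-chain complex, differed by 0.28 and was also higher in all 3 pairs, and Dhtkd1, the E1 of the 2-oxoadipate complex, differed by 0.38.

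Among 4 tested genes of lipoate and thiamine supply, which provide cofactors of E2 and E1, 1 lay below WT and 1 above it in each pair (median -0.08). Lipt1, a lipoyltransferase, read 5.42, 8.67 and 7.897 in KO 1 to 3, against 9.68, 15.6 and 8.68 in WT 1 to 3, lower in each pair, with a log2 difference of -0.61 (adjusted p = 0.546). Lias, which builds lipoate, differed by -0.14, and Lipt2, which transfers its octanoyl precursor, by 0.13.

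Of 11 tested genes that use acetyl-CoA and oxaloacetate, 2 lay below WT and 1 above it in each pair (median -0.19). Acly, which splits citrate into cytosolic acetyl-CoA for fatty acid synthesis, read 337, 372 and 397 in KO 1 to 3, against 538, 596 and 471 in WT 1 to 3. The groups did not overlap, and the log2 difference was -0.53 (-1.02 to -0.05, adjusted p = 0.554). Pck2, the mitochondrial phosphoenolpyruvate carboxykinase, differed by 0.54 with pair 2 slightly lower in KO, and Hlcs, which attaches biotin to carboxylases such as that of Pcx, by -0.45 with pair 3 higher in KO. A dimmer tested Pck2 probe set, on signals of 0.305 to 2.34, was higher in KO in each pair, by 1.40 (limma adjusted p = 0.415).

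Of 15 tested regulators of Pdk transcription, 1 lay below WT and 4 above it in each pair (median 0.06). Nr4a1, an orphan nuclear receptor, read 305.5, 106 and 139.6 in KO 1 to 3, against 236, 18.9 and 44.1 in WT 1 to 3. The KO animal was above its littermate in each pair, at ratios of 1.29, 5.63 and 3.17, but WT 1 lay above KO 2 and KO 3 (log2 difference 1.51, adjusted p = 0.431). Esrrb, an orphan nuclear receptor, differed by -0.56 on signals near the array median, and Hif1a, the oxygen-sensitive factor that induces Pdk1, by -0.26. In pair 3 this Hif1a probe set was higher in KO. Another tested Hif1a probe set differed by -0.34. The dimmest tested one, on signals near the array median, differed by 0.49 and was higher in KO in each pair.

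Of 13 tested genes known to rise together with Pdk4 on fatty acids or fasting, 2 lay below WT and 1 above it in each pair (median 0.01). Angptl4, a lipoprotein lipase inhibitor, was the 1 that was higher, by 0.31. Plin2, a lipid droplet coat protein, differed by -0.82 and was lower in each pair. Acot1, an acyl-CoA thioesterase, differed by 1.20 with pair 2 at -0.01 and most signals near or below the array median. In each of these 7 lists 0 genes passed the adjusted test. Over all tested genes, 19.7% were lower in KO in all 3 pairs and 10.9% were higher.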

How the data were processed

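Total RNA of BAT from 3 KO and 3 WT mice was hybridised to Affymetrix mouse genome arrays. The deposited values are linear intensity signals of single probe sets, for which the authors used GCOS. No source used here gives its version or scaling. The 64 control probe sets were left out of the fit. Each intensity was divided by its array median, as in the methods of the study, values under 0.25 were set to 0.25, and log2 was taken. The 22356 probe sets with a mean above 1 were tested two-sided for genotype with lmFit and eBayes (limma 3.58.1, R 4.3.3), keeping the littermate pair as a block, and p-values were adjusted by Benjamini-Hochberg over all of them at 0.05. The design text of the series and the methods of the study name the animals as littermate pairs. In a check of this pairing, correlations of the deviations of 2 littermates from their group means were 0.446, 0.0847 and 0.160, and those of unpaired animals -0.359 to 0.281. The 0.281 was that of KO 2 with WT 3, above the 0.0847 of KO 2 with its littermate. Only pair 1 exceeded every unpaired value, so the check did not set pairs 2 and 3 apart. The fit was tested on simulated data with planted changes larger than any member difference of the main fit. Whether changes of the size seen in the members would pass was not simulated.

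Gene names came from the platform annotation, and positions and promoters from RefSeq (GRCm38.p6). Genes were represented by their brightest tested probe set. Named were all members, up to 3 genes of each list with the largest differences, Ucp1 and KRAP. The members and lists were chosen with earlier results of these data known. The number of arrays limits the precision, and the p-values rest on 3 animals a group. Alternatives were other scalings, floors, a pseudocount, filters, the prior, no pair block, other probe set choices and left-out pairs or arrays.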

Additional observations from a re-analysis of the deposited data

How the results depend on the processing

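With no replicate block for the littermate pairs, 0 probe sets passed the adjusted test, members included, and 1283 had an unadjusted p under 0.05, against 1911 with it. The count of all passing probe sets was 23 with a floor of 1, 123 with a pseudocount of 1 in place of the floor, 311 with a robust prior that follows intensity, 40 with a filter above 2, 156 with one above 20 (chosen after seeing the data), and 0 to 255 when 1 pair was left out, 255 without pair 1. The count of member probe sets was 1 with that prior and 1 with the filter above 20, in both the dimmer Pdhb probe set (adjusted p = 0.0312 and 0.00358, within 0.00358 to 1.0 over its alternatives). The cause was not tested.

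The member genes with 1 direction in all pairs numbered 4, and 5 to 7 when a pair was left out, which leaves fewer pairs to agree. The median over all 9 tested member genes ranged over -0.38 to -0.07 with a pair left out. Of 254 log2 differences of member probe sets under alternatives, 246 kept their direction and side of the threshold, and 6 changed sign: the dimmest tested Pdk1 probe set to 0.005 without pair 1, Pcx to 0.14 and Dld to 0.006 without pair 2, Pdk4 to -0.10 without pair 3, and Pcx to 0.10 and Pdk4 to -0.005 without the WT 2 array and with no pair block, a setting chosen after seeing the data. Pdk2 ranged over 0.25 to 0.37, the brighter Pdhb probe set over -0.71 to -0.30, Pdhx over -0.47 to -0.17, the brighter Pdha1 probe set over -0.38 to -0.07, the other over -0.44 to -0.14 and the 3 Dlat probe sets over -0.63 to -0.14. With a pair left out, Pcx ranged over -0.26 to 0.14, Pdk4 over -0.10 to 0.28, Dld over -0.21 to 0.006 and the dimmest tested Pdk1 probe set over -0.47 to 0.005.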
